A study of Homo sapiens with 6 samples.

Results

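The miR-26, miR-29 and miR-30 families are represented by 7 of the 377 human microRNA (miRNA) assays on the cards, chosen by name: hsa-miR-26a and hsa-miR-26b, hsa-miR-29a, hsa-miR-29b and hsa-miR-29c, and hsa-miR-30b and hsa-miR-30c (the prefix, for human, is left out below). A miRNA is a short RNA that guides Argonaute proteins to messenger RNAs, which it pairs with mainly through its seed, bases 2 to 8 from the 5′ end, and so lowers their translation and stability. These families are best known from differentiated cells. miR-26 targets the chromatin repressor EZH2, miR-29 targets collagens and DNA methyltransferases, and miR-30 is prominent in kidney epithelium and podocytes.

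The cells were HEK-293FT, a human embryonic kidney line that expresses the SV40 large T antigen. Knockdown samples had received small interfering RNA (siRNA) against TruB1, a pseudouridine synthase that modifies transfer RNA. The control samples are labelled control, with no further description, and both groups fall under the same lipid transfection protocol in the labels. There were 3 control and 3 knockdown samples, 1 of each in series 1, 2 and 3. The labels do not say what a series is or whether the samples came from separate cultures, so p-values measure only the spread between these samples. TruB1 itself was not analysed here, and the depth of the knockdown is unknown.

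Mature sequences are shown first because the families are defined by them and because members within a family differ by few bases, which every later comparison between members depends on. They are the assay targets of the cards, identical to the RefSeq entries (GRCh38.p14), 5′ to 3′, with the seed in capitals. An entry was matched for 6 of the 7 members, and miR-30b is given by name only.
miR-26a: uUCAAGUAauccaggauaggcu
miR-26b: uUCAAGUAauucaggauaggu
miR-29a: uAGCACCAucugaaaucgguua
miR-29b: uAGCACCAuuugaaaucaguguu
miR-29c: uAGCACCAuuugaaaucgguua
miR-30c: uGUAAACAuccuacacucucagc

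Each family has its own seed, UCAAGUA for miR-26, AGCACCA for miR-29 and GUAAACA for miR-30. No other human assay on the card targets a miRNA with any of these seeds. With positions counted from 1 at the 5′ end, miR-26b differs from miR-26a by C11U over the first 20 positions and is shorter, at 21 against 22 bases. miR-29c differs from miR-29a by C10U alone. miR-29b carries C10U as well, and in addition G18A, U21G and A22U and a further base at its 3′ end. Its last 6 bases, AGUGUU, are a known nuclear localisation element, while miR-29a and miR-29c both end in CGGUUA. In stem-loop reverse transcription the primer anneals to the 3′ end of the miRNA, so the miR-29a and miR-29c primers face the same end, and cross-detection between them was not tested.

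The genes of the families are scattered. On GRCh38.p14, miR-26a is encoded at chr3:37969413-37969434 within CTDSPL and at chr12:57824658-57824679 within CTDSP2, and miR-26b at chr2:218402657-218402677 within CTDSP1. These host genes encode a family of small phosphatases that act on the RNA polymerase II C-terminal domain. miR-29a lies at chr7:130876748-130876769, 719 bases from a miR-29b copy at chr7:130877467-130877489. miR-29c lies at chr1:207801865-207801886, 585 bases from the other miR-29b copy at chr1:207802450-207802472, both within the noncoding host gene MIR29B2CHG. Each miR-29b copy is thus a close neighbour of another family member. miR-30c is encoded at chr1:40757300-40757322 within NFYC, which encodes a subunit of the transcription factor NF-Y, and at chr6:71377003-71377025, where no other gene was listed. Whether these positions are exonic or intronic was not examined.

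Each well gave a threshold cycle (Ct), the number of amplification cycles needed for its fluorescence to pass a set level. Template doubles per cycle at best, so abundant miRNAs have a low Ct, and a difference of 1 cycle is read as 1 log2 unit. Across the samples, 188 to 226 miRNA assays had a Ct under 35. The reference, U6 small nuclear RNA, had mean Ct values from 12.2 to 15.4. It came from 2 of 4 wells in control sample 3 and from 3 of 4 in knockdown samples 2 and 3. U6 wells of the same card could lie far apart, from Ct 13.5 to 16.3 in control sample 1 and from 11.2 to 13.1 in control sample 3. In knockdown sample 3 they ran from 13.0 to 13.4. Values relative to U6 carry this imprecision. Kidney-enriched miR-192, miR-194 and miR-204 were under Ct 35 in all 6 samples and miR-215 in 1 sample. Of markers of other lineages, liver miR-122 gave no Ct and erythroid miR-451 was under 35 in 0 samples, while myeloid miR-223 and haematopoietic miR-142-3p were under 35 in 5 samples, at a Ct no earlier than 29.5. Muscle miR-1 was under 35 in 3 samples. Muscle miR-133a, from Ct 27.9 to 31.7, and neuronal miR-9, from 23.2 to 25.9, were under 35 in all 6.

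All 7 members were detected, 6 of them under Ct 35 in every sample, and their order of level was nearly the same on every card. Averaged over the samples, hsa-miR-30c crossed first at Ct 21.4 ± 1.21 (SD, n = 6), followed by hsa-miR-30b at 21.9 ± 0.95 (SD, n = 6), hsa-miR-29a at 23.1 ± 1.03 (SD, n = 6), hsa-miR-26a at 23.8 ± 0.69 (SD, n = 6), hsa-miR-26b at 25.8 ± 0.72 (SD, n = 6), hsa-miR-29c at 27.3 ± 0.87 (SD, n = 6) and hsa-miR-29b at 30.9 ± 1.70 (SD, n = 5). miR-30c ranked between 6 and 16 from the earliest well on its card, and miR-29b between 128 and 187 of the assays with a Ct. miR-30c and miR-30b did not differ beyond their spread: they stood in this order in 5 of 6 samples. miR-29a and miR-26a lay 0.62 cycles apart, less than either SD, and within a card the gap was as small as 0.025 cycles. The gaps from miR-30b to miR-29a (1.25 cycles), miR-26a to miR-26b (2.00), miR-26b to miR-29c (1.50) and miR-29c to miR-29b (3.60) exceeded the SD of both neighbours, and the order was the same on every card with both wells. Assay efficiencies are not known, so this order describes the wells and not the number of molecules.

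**Figure D1:**
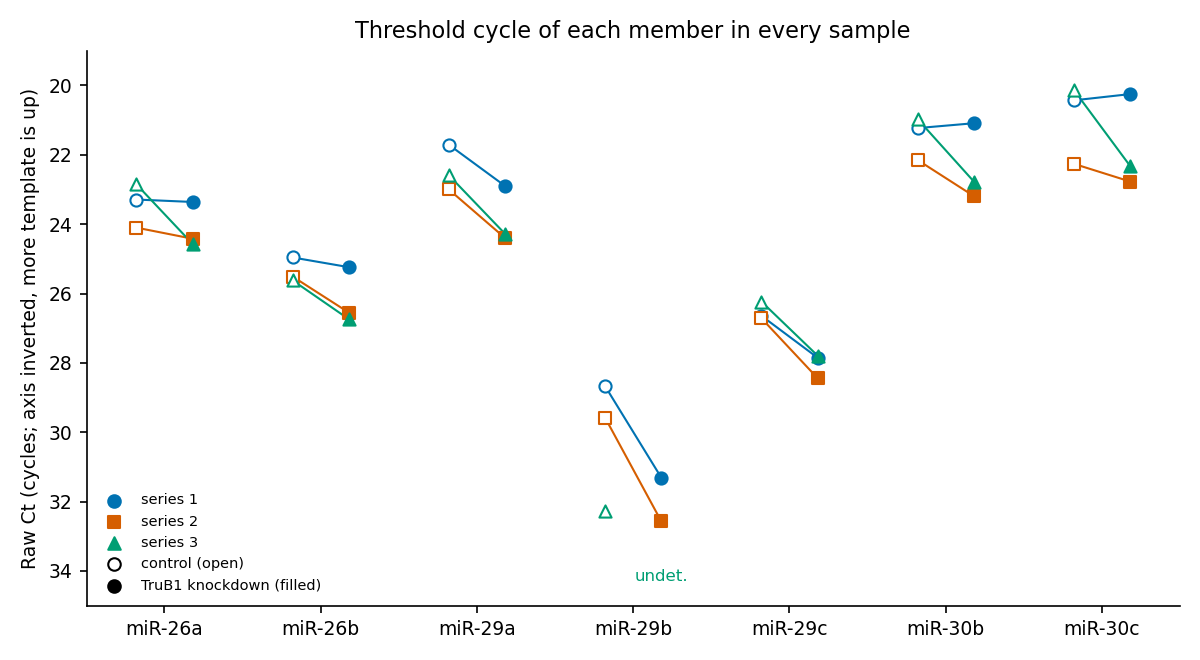
Raw Ct (cycles, axis inverted) of the 7 members, with open symbols for control and filled symbols for TruB1 knockdown, and a line joining samples of a series. All 3 knockdown wells of miR-29c lie below its 3 control wells, from 27.8 to 28.4 against 26.2 to 26.7. The same held for 24 of 161 assays determined in all samples, 14.9%. Raw Ct is not scaled to the RNA on a card, and relative to U6 the miR-29c groups overlap. miR-29b gave no Ct in knockdown sample 3.

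The question of the study's design is what TruB1 knockdown changes. No member passed the adjusted threshold between knockdown and control, with or without the series as a block. Relative to U6, the log2 difference was 0.20 for miR-26a, 0.09 for miR-26b, 0.00 for miR-30b and 0.07 for miR-30c, and -0.52 for miR-29a, -0.23 for miR-29b and -0.59 for miR-29c, so that 4 members had a higher and 3 a lower mean in knockdown. In limma, 0 of the 7 members passed an adjusted p of 0.05, against 0% of the 195 assays tested. The counts at an unadjusted p under 0.05 were also 0 and 0, and when series entered the limma fit as a replicate block 0 of 189 assays passed the adjusted threshold, while 10 of them, 5.29%, had an unadjusted p under 0.05, miR-29b as the only member. The median over the members was 0.00, beside -0.10 over all assays tested, of which 79 were higher and 116 lower. The 95% confidence intervals were wide, for example from -2.68 to 3.09 for miR-26a and from -3.47 to 2.28 for miR-29c, so changes of several-fold in either direction lie within them. With the block they narrowed, to between -0.96 and 1.36 for miR-26a and between -1.60 and 0.42 for miR-29c. In fits without the block, leaving out a single sample reversed the direction in all members but miR-29c. Each such fit keeps the series partner of the sample left out, so the groups no longer hold the same series. Both miR-26 and both miR-30 members had a lower mean in knockdown without knockdown sample 1 and without control sample 3. miR-29a had a higher one without control sample 1 (0.40) and without knockdown sample 3 (0.33). The whole card moved the same way. The median over all assays tested was -0.81 without knockdown sample 1 and -0.74 without control sample 3. It was 0.58 without control sample 1 and 0.76 without knockdown sample 3, so these reversals are not particular to the members.

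Relative to U6, the lowest changes among the members within series 1 and 2 were those of miR-29 members, though none passed an adjusted test. In series 2 miR-29a was not lower, at 0.08, and in series 3 miR-30c had the lowest change, at -1.095. miR-29b, the latest of the 7, crossed at Ct 28.7, 29.6 and 32.3 in control samples 1, 2 and 3, and at 31.3 and 32.6 in knockdown samples 1 and 2, with no Ct in knockdown sample 3. It was later in knockdown in both series that have both wells, but the well of control sample 3 lay between the knockdown wells, so the groups overlap. Within series 1 its ratio to U6 was 0.177 of the control value, the second-lowest change (rank 2) of 189 tested assays with both wells, and within series 2 it was 0.349, rank 6 of 177. Set against the median change of the tested assays of each series, these are log2 differences of -2.29 and -1.83.

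In the limma fit without the block, the value of miR-29b was -0.23 (SE 1.66, adjusted p = 0.999), from 3 control and 2 knockdown wells. With the replicate block, which rests on series 1 and 2, the value was -2.01 (SE 0.577, 95% interval -3.41 to -0.61). Its unadjusted p in that limma fit was 0.0126 and its adjusted p 0.728; an unadjusted p under 0.05 was reached by 10 of 189 assays, 5.29%. With undetermined wells at Ct 40, which fills the missing well, the unblocked value was -3.56, and scaled to the mean of the 157 assays under Ct 35 in all samples, in place of U6, it was -0.96. Scaled to that mean and with the block, the value was -2.10. Without control sample 3 the unblocked value was also -2.01. Without control sample 1, but with its series partner kept, the unblocked value was 1.08. Without knockdown sample 1 or 2 only 1 knockdown well is left, and miR-29b was not tested.

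miR-29a and miR-29c, which end in the same bases, had similar differences. miR-29a crossed at Ct 21.7, 23.0 and 22.6 in control samples 1 to 3 and at 22.9, 24.4 and 24.3 in knockdown samples 1 to 3. The highest control value lies above the lowest knockdown value, so its groups overlap. Relative to U6 its log2 changes were -1.04, 0.08 and -0.59 in series 1, 2 and 3. miR-29c crossed at 26.6, 26.7 and 26.2 in control and at 27.8, 28.4 and 27.8 in knockdown, without overlap. That was the case, with later knockdown wells, for 24 of 161 assays determined in all samples, 14.9%. A later Ct in knockdown in every series was seen in miR-26a, miR-26b, miR-29a and miR-29c, 4 of the 6 members determined in all samples, and in 99 of the 161 assays, 61.5%. Raw Ct is not scaled to the RNA on a card, and the mean Ct of the 157 assays under 35 in all samples was later in knockdown by 0.314, 1.12 and 1.69 cycles in series 1, 2 and 3.

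Relative to U6, miR-29c was lower in knockdown in every series, at -1.06, -0.25 and -0.46 on the log2 scale, a mean of -0.59 ± 0.42 (SD, n = 3), and its group values overlapped, as did those of all 161 assays determined in every sample (0% without overlap). Lower values in all 3 series were seen in 31 of the 161 assays, 19.3%. miR-29c was the only member among them, and miR-29b could not be counted. Higher values in all 3 series were seen in 7 assays, 4.35%, and in 0 members. Relative to the median of tested assays, miR-29c was at -0.85, -0.57 and 0.05, and miR-29a at -0.83, -0.23 and -0.09. In series 3 both thus lay close to the middle of the card.

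**Figure D2:**
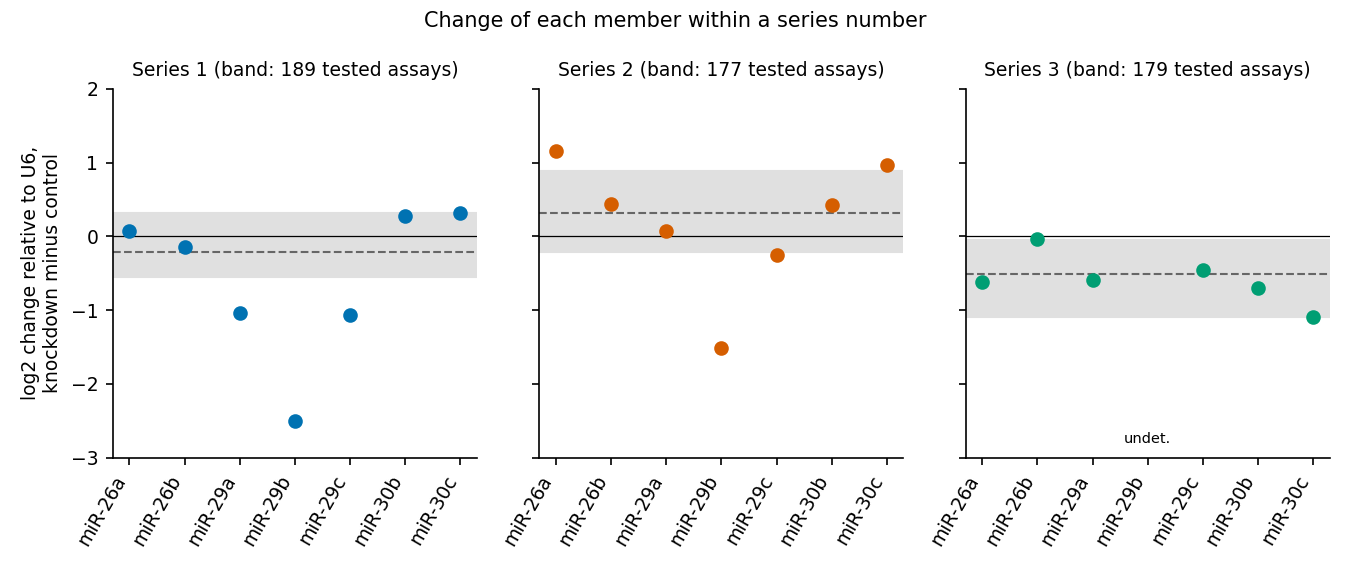
Log2 change relative to U6, knockdown minus control, of each member in series 1, 2 and 3, with the median (dashed) and the quartiles (grey band) of all tested assays with both wells in that series. The miR-29 members lie below the band or in its lower part in series 1 and 2, with miR-29b lowest at -2.50 and -1.52, whereas in series 3 miR-29a and miR-29c lie within 0.1 of the median.

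The miR-26 pair showed no common direction. miR-26a had log2 values relative to U6 of -8.55, -10.13 and -10.70 in control samples 1 to 3 and of -8.48, -8.97 and -11.32 in knockdown samples 1 to 3. The series 3 samples were the lowest of each group, and the groups overlap. Within series 1, 2 and 3 the change was 0.07, 1.16 and -0.62. miR-26b was at -10.22, -11.54 and -13.46 in control and at -10.36, -11.10 and -13.50 in knockdown, with changes of -0.14, 0.44 and -0.03. Against the median of all tested assays, miR-26b was higher by 0.07, 0.12 and 0.48, and miR-26a differed by 0.28, 0.84 and -0.11. The mean change of miR-26b within series was 0.09 ± 0.31 (SD, n = 3), the smallest SD among the members.

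The differences of the miR-30 members had opposite signs in different series. miR-30b was at -6.50, -8.18 and -8.81 relative to U6 in control samples 1 to 3 and at -6.21, -7.75 and -9.52 in knockdown samples 1 to 3. miR-30c was at -5.70, -8.29 and -7.98 in control and at -5.38, -7.32 and -9.07 in knockdown. Both were higher in knockdown in series 1 and 2 and lower in series 3. The changes were 0.28, 0.43 and -0.71 for miR-30b and 0.32, 0.97 and -1.09 for miR-30c. The shift of the whole card had the same sign as these in series 2 and 3, with medians of 0.32 and -0.51, but not in series 1, with a median of -0.21. In raw Ct, part of the spread of miR-30c lies in control sample 2, where it crossed at Ct 22.3 against 20.4 and 20.1 in control samples 1 and 3. The mean Ct of assays under 35 in all samples was also later on that card, at 26.6 against 25.9 and 25.9. Relative to U6, control sample 1 was the control that stood apart.

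Differences between wells of a card do not depend on U6 or, where assays amplify equally well, on the amount of RNA. They were compared for 5 pairs of members, as log2 differences, with an exact two-sided permutation test of knockdown against control, which cannot give a p under 0.1 with these numbers of samples. miR-29a exceeded miR-29c by 4.93, 3.71 and 3.64 in control samples 1 to 3 and by 4.95, 4.04 and 3.50 in knockdown. Both samples of series 1 were above all others, and the groups overlap, with a change of 0.07 between groups (exact p = 0.9) and of 0.02, 0.34 and -0.13 within series. miR-26a exceeded miR-26b by 1.67, 1.41 and 2.76 in control and by 1.88, 2.13 and 2.18 in knockdown, a change of 0.11 (exact p = 0.9). For miR-30b minus miR-30c the change was -0.06 (exact p = 0.9), over samples from -0.84 to 0.11.

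Of the 5 differences, those that involve miR-29b were the ones that changed by over 1 log2 unit in the same direction in each series with all wells, which are series 1 and 2. miR-29a exceeded miR-29b by 6.96, 6.58 and 9.66 in control samples 1 to 3 and by 8.41 and 8.18 in knockdown samples 1 and 2. Within series 1 and 2 the gap was wider in knockdown by 1.46 and 1.60. The gap in control sample 3 was nevertheless wider than in either knockdown sample, so the groups overlap, and the difference between group means was 0.56 (exact p = 0.8). miR-29b minus miR-29c was -2.03, -2.87 and -6.03 in control and -3.47 and -4.13 in knockdown, with changes of -1.44 and -1.26 within series and -0.16 between groups (exact p = 1). Without control sample 3 the group differences were 1.53 for miR-29a minus miR-29b and -1.35 for miR-29b minus miR-29c, and with undetermined wells at Ct 40 they were 3.04 and -2.96. After Benjamini-Hochberg adjustment over the 5 comparisons each exact p was 1. An exact sign-flip test over series cannot go below p = 0.5 with 2 series or p = 0.25 with 3.

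**Figure D3:**
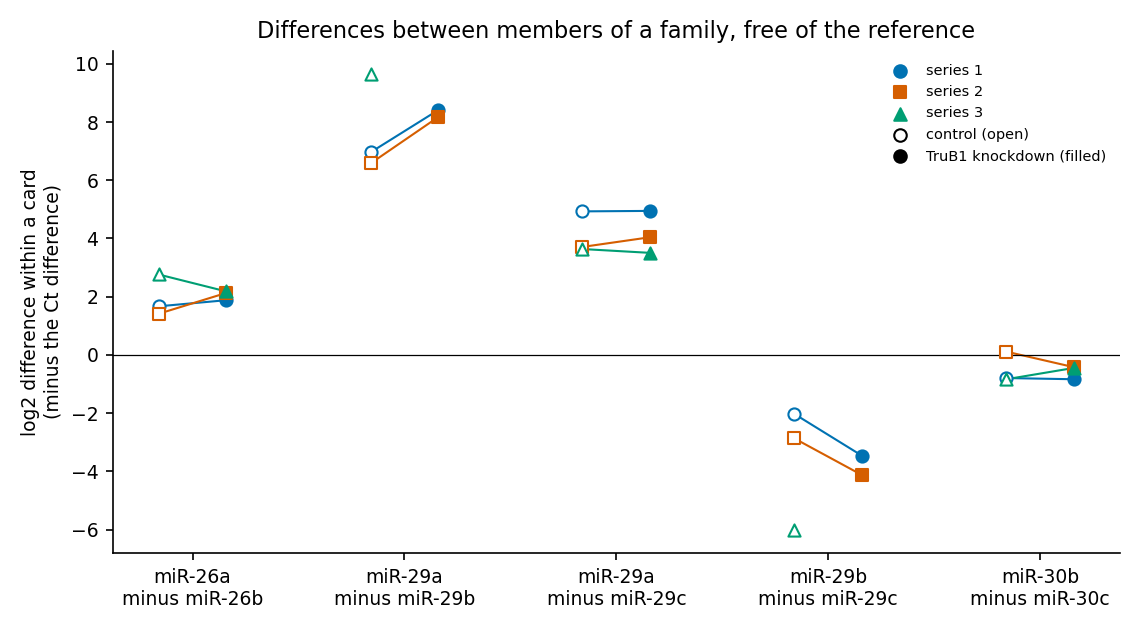
Log2 difference between members of a family on the same card for 5 pairs, with open symbols for control, filled symbols for knockdown and a line joining samples of a series. The difference of miR-29a and miR-29c is nearly level within each series, while miR-29b lies further from both in knockdown in series 1 and 2, and lies furthest from both in control sample 3.

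The families were also set against each other within a card, a comparison chosen after the values had been seen and given without a test. Over members determined in every sample, which leaves out miR-29b, miR-29 minus miR-26 was -0.06, -0.05 and -0.17 in control samples 1 to 3 and -1.07, -0.93 and -0.38 in knockdown samples 1 to 3. The 3 control values lie above the 3 knockdown values, and the same difference from the miR-26 mean, in either direction, did not overlap for 6 of 151 other assays, 3.97%. Since the contrast was picked for its values, nothing is read from that share. The change within series was -1.02, -0.88 and -0.20. Leaving out any 1 sample kept the difference between group means within -0.91 and -0.56. Its sign could not change, because the groups do not overlap, so nothing is read from that range either. miR-29 minus miR-30 was -3.35, -2.65 and -3.86 in control and -4.70, -3.43 and -3.49 in knockdown, which overlap, with changes of -1.36, -0.79 and 0.37 and a difference between group means of -0.59. That difference lay between -0.88 and -0.18 with 1 sample left out, smallest without knockdown sample 1. For miR-26 minus miR-30 the changes were -0.34, 0.10 and 0.58.

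Among 151 other assays under Ct 35 in all samples, those that followed each family most closely were ranked by the SD, over the 6 samples, of their Ct minus the family's mean Ct, a measure that needs no reference. For miR-26 they were miR-532-3p (SD 0.195 cycles), miR-503 (0.196) and miR-106a (0.226). For miR-29, without miR-29b, they were miR-17 (0.224), miR-222 (0.255) and miR-183 (0.294). For miR-30 they were miR-19b (0.222), miR-195 (0.244) and miR-491 (0.25). The median SD over the 151 assays was 0.70, 0.72 and 0.75 cycles for miR-26, miR-29 and miR-30. Between the families the SD was above that of these nearest assays and below those medians, with 0.452 cycles between miR-29 and miR-26, 0.502 between miR-30 and miR-26 and 0.677 between miR-30 and miR-29. Each family value here is a mean of 2 assays, whereas the other assays are single wells, so these SDs are not directly comparable.

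Other miRNAs linked to differentiation or restraint of growth were counted in the same way. Of 12 listed, 10 had an assay of that name and 7 were tested, with 2 higher and 5 lower means in knockdown, a median log2 difference of -0.38 and 0 past an adjusted p of 0.05 in limma. They included miR-34a, which p53 induces, at 0.04, miR-101, which like miR-26 targets EZH2, at -0.53, and the extremes of the list, miR-218 at -0.79 and miR-145 at 1.27. The growth-linked guide strands of the miR-17 cluster, all 6 of them tested, had 2 higher and 4 lower means. They ran from -1.72 for miR-92a, the lowest of all assays tested, to 0.07 for miR-19b, with 0 past the threshold. Over all 195 assays tested the share past the threshold was also 0%.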

How the data were processed

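Total RNA (1000 ng) was reverse transcribed with Megaplex Pool A primers and run on TaqMan array cards for 40 cycles, per the labels' protocols. The deposited raw values are Ct, 1 well per miRNA. The deposited ratio of each assay to U6 was found to be 2 to the power of the mean U6 Ct minus the assay's Ct (largest log2 difference 6.8e-06). Threshold and baseline settings are not given in the sources used here. The log2 ratio was analysed, with undetermined wells missing. An assay was tested with Ct under 35 in at least 3 samples and a value in at least 2 samples of each group. limma 3.58.1 (R 4.3.3) was fitted to the whole card with group as the only term, with Benjamini-Hochberg adjustment. Fits with and without the block were run on simulated data, but a minimum recovery of the changes put in was required only with the block. What size of change the fit without the block could detect is therefore not given here. A Ct has no count behind it, and the single well per sample limits the precision.

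Whether series numbers pair the samples is not stated in the labels and was judged from the values. Over 161 assays, deviations from the group means correlated at r = 0.416, 0.527 and 0.625 for the same number, against -0.536 to 0.249 for different numbers. Samples of the same number were therefore taken as paired. Deviations cancel out within a group, so the contrast with different numbers is partly built in. All 7 members are named. Members and lists were chosen with earlier results of these data known. The nearest 3 assays per family followed a stated rule.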

Additional observations from a re-analysis of the deposited data

How the results depend on the processing

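No assay passed an adjusted p of 0.05 in limma under any of 15 alternatives, and in 101 fits of members under them the smallest adjusted p was 0.352. A p above the threshold does not show stability. With raw Ct, which carries the later Ct of all knockdown cards (median -1.0), the direction reversed for miR-26a (-0.70), miR-26b (-0.82), miR-30b (-0.90) and miR-30c (-0.84). Other references, quantile normalization, the Ct filters and undetermined wells at Ct 40 reversed none of the members tested under them; miR-29b was not tested with quantile normalization or with Ct under 35 in all 6 samples. The replicate block changed no call. It moved miR-29b from -0.23 to -2.01 and left the members with all wells at the same value. Without the block, miR-29b was at -0.96 when scaled to assays detected on every card and at -3.56 with undetermined wells at Ct 40. Undetermined wells at Ct 40 also took the miR-29 family mean from -0.56 over 2 members to -1.56 over 3. miR-29b enters only the latter, and the values of miR-29a and miR-29c stayed the same. With that setting miR-29a minus miR-29b went from 0.56 to 3.04 and miR-29b minus miR-29c from -0.16 to -2.96.

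In fits without the block, leaving out a sample moved every member, with reversals in all but miR-29c. The series partner of that sample stayed in, so the groups no longer held the same series. The ranges were -0.35 to 1.07 for miR-26a, -0.77 to 1.01 for miR-26b, -1.33 to 0.40 for miR-29a, -2.01 to 1.08 for miR-29b, -1.18 to -0.07 for miR-29c, -0.80 to 0.85 for miR-30b and -0.88 to 0.97 for miR-30c. Family means ran from -0.51 to 1.04 for miR-26, -1.25 to 0.15 for miR-29 and -0.84 to 0.91 for miR-30. Differences between members ran from -0.15 to 0.52 for miR-26a minus miR-26b, -0.018 to 1.53 for miR-29a minus miR-29b, -0.32 to 0.49 for miR-29a minus miR-29c, -1.35 to 0.65 for miR-29b minus miR-29c and -0.23 to 0.25 for miR-30b minus miR-30c. The cause was not tested.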
